A study of Macaca mulatta with 5 samples.

Results

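GABRA3, KCNA1 and UNC80 are neuronal ion channel genes in which the study lists a verified A-to-G editing site in the coding region. The rows for these genes were chosen by gene identifier, ENSMMUG00000001540 for GABRA3, ENSMMUG00000012274 for KCNA1 and ENSMMUG00000002809 for UNC80, which gave 5 of the 51763 transcripts and 3 of the 28633 gene identifiers in the files. The data were strand-specific poly(A)-positive RNA-Seq libraries, made from male rhesus macaque (Macaca mulatta) with no treatment and no age given in the labels. The tissues were spleen, heart, lung, kidney and cerebellum. Each tissue had 1 library and therefore no replicate. Cerebellum, kidney, lung and heart came from the same animal according to the study, whereas the animal of the spleen library is not stated. The measured quantity was the number of reads on a transcript and its RPKM, which divides the read number by the length of the exons in kilobases and by the depth of the library, counted as properly mapped reads. Both count edited and unedited transcripts together, and editing levels were not analysed here.

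GABRA3 encodes the alpha3 subunit of the GABA-A receptor, a chloride channel made of 5 subunits that opens on binding of the inhibitory transmitter GABA. Editing of its transcript replaces an isoleucine of a membrane-spanning segment by methionine. KCNA1 encodes Kv1.1, a voltage-gated potassium channel of axons and nerve terminals that assembles with other Kv1 alpha subunits and with cytoplasmic beta subunits, and its editing site lies where the inactivating particle binds in the pore. UNC80 encodes a large scaffold protein that, with UNC79, holds the sodium leak channel NALCN in the membrane, where the channel carries a steady inward current at rest. Its editing site changes a serine to glycine. Editing at such sites is carried out by the ADAR enzymes, which act on double-stranded RNA.

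The identity of the 3 genes was checked against their positions, which are given on rheMac2. GABRA3 was a single transcript on chromosome X from 150253251 to 150538754, with 4078 bp of exon. KCNA1 was a single transcript on chromosome 11 from 5027129 to 5028713, and its exon length of 1585 bp equals the span, which makes it a model of 1 exon. UNC80 had 3 transcripts on chromosome 12, the longest from 73551187 to 73782245 with 14077 bp of exon. The nearest named genes in the files were GABRE on one side of GABRA3, NDUFA9 and KCNA5 around KCNA1, and MAP2 and RPE around UNC80. All 5 are also within 3 protein-coding genes of the same gene in the RefSeq annotation of assembly T2T-MMU8v2.0, whereas CETN2, the nearest named gene on the other side of GABRA3, is not. The name table gives KCNA1 under another identifier that is not in the files, so its name rests on the position and on the study. The editing site listed by the study lies within the span of the GABRA3 and KCNA1 transcripts and of the longest UNC80 transcript.

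All 3 genes had their highest level in cerebellum and were under 0.1 RPKM in the other tissues, where GABRA3 and KCNA1 had 8 reads or fewer and UNC80 had 38 to 46 (plot of the level by tissue). GABRA3 had 1025 reads in cerebellum, 8 in heart and 0 in kidney, lung and spleen. This was 3.08 RPKM in cerebellum (95% Wilson interval 2.90 to 3.28) and 0.031 RPKM in heart (0.016 to 0.061). The smallest level that the depth can show, set at 3 reads, was 0.015 RPKM for GABRA3 in kidney, 0.0095 in lung and 0.011 in spleen. The cerebellum library was thus high and the other 4 were low, with heart the only one of the 4 that had reads on GABRA3.

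KCNA1 had 782 reads in cerebellum, 2 in heart and 0 in kidney, lung and spleen. The level was 6.05 RPKM in cerebellum (5.64 to 6.49). The 2 reads in heart are under the limit of 3 reads, which was 0.030 RPKM in heart, 0.039 in kidney, 0.024 in lung and 0.028 in spleen. KCNA1 was therefore detected in cerebellum and not detectable at this depth elsewhere.

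UNC80 had reads in every tissue, above the limit of 3 reads in each. Its longest transcript had 10198 reads in cerebellum, 46 in heart, 43 in lung, 40 in spleen and 38 in kidney. The level was 8.89 RPKM in cerebellum (8.72 to 9.06), 0.056 in kidney (0.041 to 0.077), 0.052 in heart (0.039 to 0.069), 0.042 in spleen (0.031 to 0.058) and 0.039 in lung (0.029 to 0.053). Outside the cerebellum the intervals overlapped for every pair of tissues. The largest ratio, kidney over lung, was 1.42 with an exact interval from 0.895 to 2.25. The order of these 4 tissues is thus not resolved on the deposited RPKM scale, and it depends on the scaling. With upper quartile scaling, heart came first at 0.091 RPKM, with kidney at 0.049, lung at 0.031 and spleen at 0.030. With median-of-ratios scaling, heart was at 0.099, kidney at 0.048, spleen at 0.028 and lung at 0.026. Within cerebellum the intervals of the 3 genes did not overlap when UNC80 was taken by its longest transcript. On the per-length RPKM scale UNC80 was then highest and GABRA3 lowest. The shorter UNC80 transcripts, at 2.34 and 2.66 RPKM in cerebellum, had values below that of GABRA3.

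**Figure D1:**
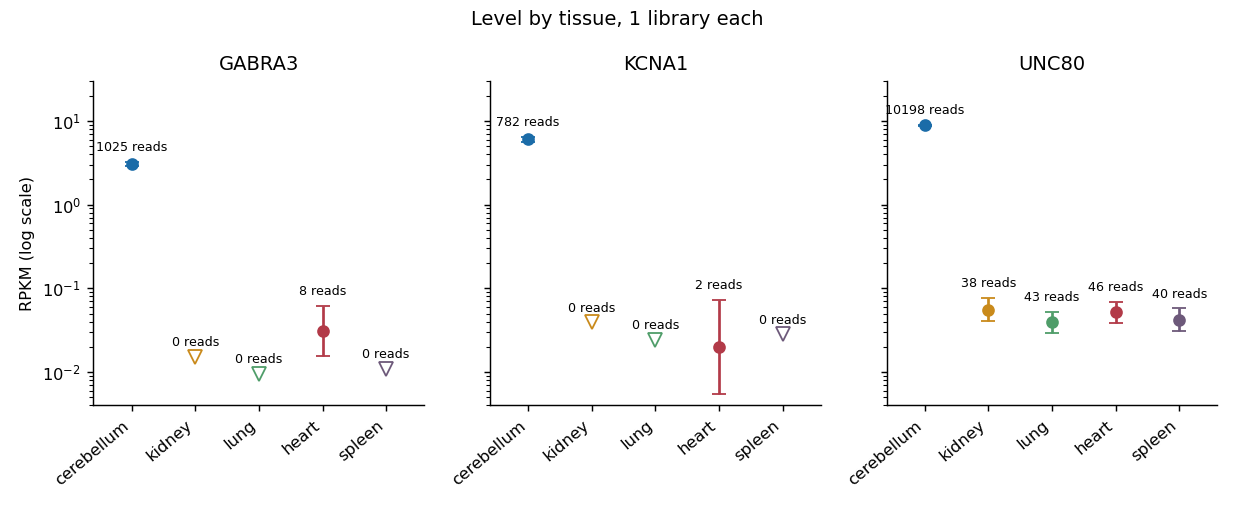
RPKM (log axis) of GABRA3, KCNA1 and UNC80 (longest transcript) in the 5 tissues, 1 library each, with 95% Wilson intervals of the read number; open triangles mark the RPKM of 3 reads where a tissue had 0 reads. Each gene sits above 3 RPKM in cerebellum and under 0.1 RPKM in the other 4 tissues.

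With 1 library per tissue, no difference between tissues could be tested, and the intervals cover the counting of reads only. They are also too narrow where both mates of a read pair were counted. Among transcripts with 1 to 20 reads, 63.5% to 67.9% had an even read number in the 5 libraries, against 50.7% to 51.4% among those with over 100 reads. In bulk tissue, fewer cells that express a gene and less RNA per cell cannot be told apart.

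The ratio of cerebellum to each other tissue was large for all 3 genes. For GABRA3 it was 99.5 over heart (exact interval 50.3 to 231). With 3 reads per library as the floor, the level in cerebellum was at least 202-fold higher than in kidney, 281-fold higher than in spleen and 326-fold higher than in lung. The lower limits of the exact intervals, which take the 0 reads as counted, were 164, 228 and 265. For KCNA1, with the same floor, cerebellum was at least 154-fold higher than kidney, 215-fold higher than spleen and 249-fold higher than lung. The exact lower limits were 125, 174 and 202. The ratio over heart, where 2 reads were counted, was 304 with an interval from 83.8 to 2512. For UNC80 the ratios were 159 over kidney (116 to 225), 172 over heart (129 to 235), 210 over spleen (154 to 294) and 226 over lung (168 to 313). If each pair of mates is counted once, the interval over heart widens to 38.6 to 366 for GABRA3, that of KCNA1 to 54.2 to 12027, and that of UNC80 over kidney to 102 to 264.

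Genes were called cerebellum-enriched at 1 RPKM or more in cerebellum and at least 4 times the highest of the other 4 tissues. The call applied to 3 of the 3 genes. Of the 17955 genes with at least 10 reads in at least 1 tissue, 991 were called (5.52%). Set against each tissue alone, all 3 genes again passed, where 10.1% of all genes did so over kidney, 8.5% over lung, 18.6% over heart and 9.92% over spleen. All 3 genes reached 1 RPKM in cerebellum and in no other tissue, as did 4.47% of all genes. The genes are known as neuronal and were chosen with earlier results of these data in view, so their count is a description. Over the highest other tissue, the fold was 99.5 for GABRA3 (heart), at least 154 for KCNA1 (kidney) and 159 for UNC80 (kidney). Scaling by the upper quartile or by median-of-ratios lowered the fold to 56.5 or 52.1 for GABRA3 and to 97.7 or 90.2 for UNC80. On the deposited scale, KCNA1 and UNC80 were past 100-fold, as were 1% of all genes. For KCNA1 this rests on the floor, since the bound was at least 77.2 with a floor of 6 reads and at least 46.3 with 10 reads. A larger fold was found at 1.01% of the 17955 genes for GABRA3, 0.735% for KCNA1 and 0.696% for UNC80. The level itself was moderate in cerebellum. Of the same genes, 54.7% had a lower RPKM in cerebellum than GABRA3, 69% than KCNA1 and 76.9% than UNC80.

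**Figure D2:**
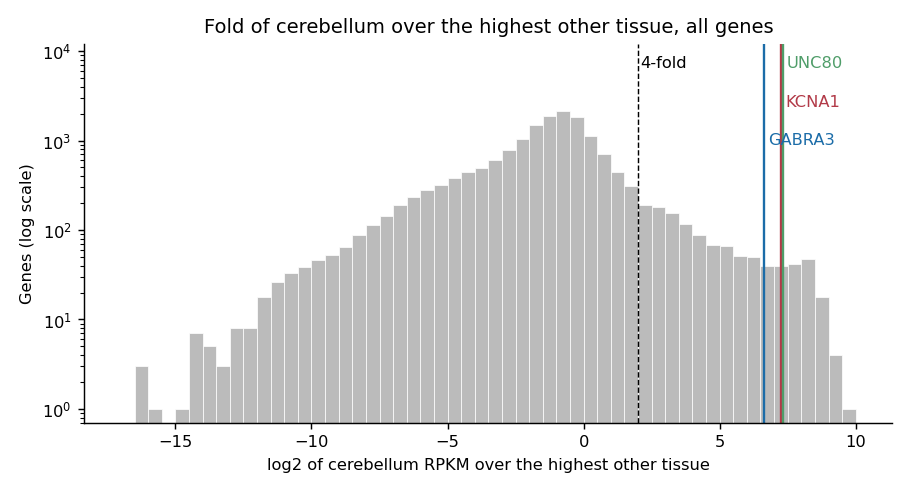
Number of genes (log axis) by log2 of the cerebellum RPKM over the highest of kidney, lung, heart and spleen, for genes with at least 10 reads in a tissue and reads in cerebellum, with tissues under 3 reads put at the level of 3 reads. The solid lines mark GABRA3 at 99.5-fold, KCNA1 at its lower bound of 154-fold and UNC80 at 159-fold, all in the right tail. The dashed line marks 4-fold.

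UNC80 was the only one of the 3 genes with more than 1 transcript. The shorter models lay inside the span of the longest one, from 73611882 to 73750842 with 5337 bp of exon and from 73750633 to 73765180 with 1477 bp of exon. The editing site lies within the span of the longest and of the 1477 bp model, and outside the 5337 bp model. In cerebellum the 5337 bp model had 1017 reads (2.34 RPKM, 2.20 to 2.49) and the 1477 bp model had 320 reads (2.66 RPKM, 2.38 to 2.97). The longest model was thus 3.802 and 3.34 times higher per length than the shorter ones. The 5337 bp model held 9.07% of the reads on it and the longest model together (exact interval 8.54% to 9.61%), where its share of the exon length is 27.5%.

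In the other tissues the shorter UNC80 models had few reads. The 5337 bp model had 8 reads in heart, 6 in kidney, 2 in lung and 2 in spleen. The 1477 bp model had 4 reads in kidney, 2 in heart and 0 in lung and spleen. The share of the 5337 bp model was 4.44% in lung (0.543% to 15.1%), 4.76% in spleen (0.582% to 16.2%), 13.6% in kidney (5.17% to 27.4%) and 14.8% in heart (6.62% to 27.1%). All 4 intervals include the share in cerebellum, so for this model no difference in its share was detectable at this depth. The files do not say whether a read was counted on more than 1 of the models.

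A further 2 gene identifiers without a name overlapped the span of UNC80 near its lower-coordinate end. Their transcripts, with 963 bp and 804 bp of exon, had 51 and 40 reads in cerebellum (0.65 and 0.61 RPKM). In the other tissues they had 4 reads in kidney on the 963 bp transcript and no reads otherwise. RPE, a gene of the pentose phosphate pathway, starts 1675 bp beyond the other end of UNC80 and was present in all 5 tissues. Its 2486 bp model had 7.34 RPKM in spleen, 6.23 in kidney, 5.06 in lung, 4.30 in cerebellum and 1.33 in heart. On the deposited scale this model was thus higher in spleen, kidney and lung than in cerebellum. Upper quartile and median-of-ratios scaling divide lung values by 1.27 and 1.49, which puts this model lower in lung than in cerebellum. Whether reads of RPE contributed to the low UNC80 counts outside the cerebellum was not tested. The 4 other transcripts inside the span of GABRA3, each 81 to 110 bp long, had 0 reads in every tissue, and no other transcript of the files lay within 25 kb of KCNA1.

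**Figure D3:**
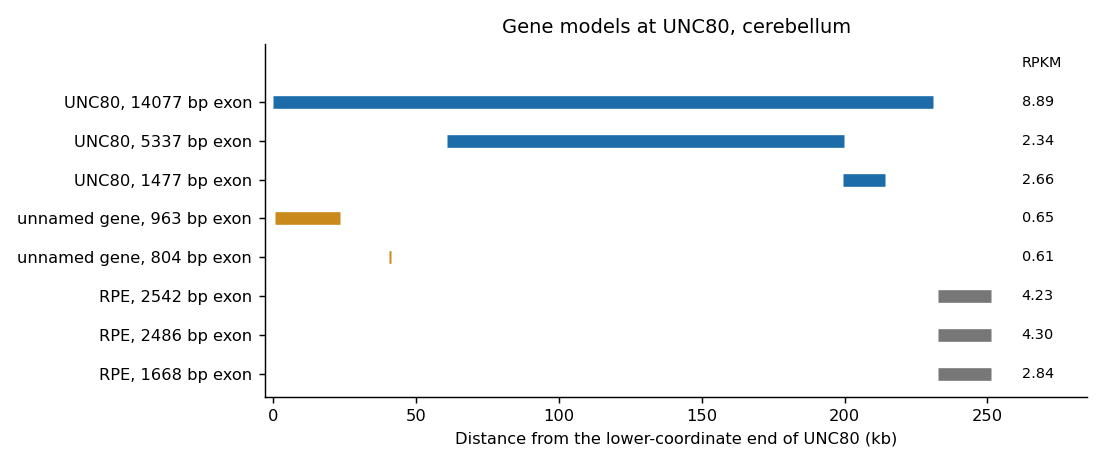
Gene models at the UNC80 locus by distance (kb) from its lower-coordinate end, as spans without exons, with the RPKM in cerebellum at the right. The longest UNC80 model stands at 8.89 RPKM, the shorter models inside it at 2.34 and 2.66, and the unnamed genes at 0.65 and 0.61.

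The reads of GABRA3, KCNA1 and UNC80 in heart were set beside markers of cerebellar cells in the same library (plot of the percent of the cerebellum level). All 6 matched granule cell genes (NEUROD1, ZIC1, ZIC2, CBLN1, CBLN3 and GABRA6) had reads in heart, at 0.195% to 0.397% of their cerebellum RPKM and with a median of 0.304%. Of all 991 cerebellum-enriched genes, 11.3% had 0 reads in heart, and their median was 0.873% of cerebellum (quartiles 0.350% and 3.73%). The summed level of the 6 granule cell genes was 909 RPKM in cerebellum, 2.70 in heart, 0.929 in spleen, 0.381 in lung and 0.234 in kidney. ZIC1, a transcription factor of granule cells, had 52 reads in heart and 0 in kidney, lung and spleen. Of the 6 genes, 4 were at 0 reads in kidney, 3 in lung and 3 in spleen. The 6 pan-neuronal genes (SNAP25, SYT1, RBFOX3, STMN2, NEFL and ELAVL4) stood in heart at 0.096% to 0.554% of cerebellum.

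In heart, GABRA3 was at 1.005% of its cerebellum level (0.433% to 1.99%), KCNA1 at 0.329% (0.040% to 1.19%) and UNC80 at 0.581% (0.425% to 0.775%). The value of KCNA1, from 2 reads, lies within the range of the granule cell genes, and those of GABRA3 and UNC80 lie above it. With each pair of mates counted once, the intervals of GABRA3 (0.273% to 2.59%) and UNC80 (0.368% to 0.872%) reach into that range. Cerebellum-enriched genes of the other cerebellar cell types stood higher in heart or spread wider. They were at 0.613% to 0.871% of cerebellum for oligodendrocytes, 0.065% to 2.375% for Purkinje cells and 0.408% to 5.63% for astrocytes. On the deposited scale, UNC80 stood at a like percentage in the other tissues, with 0.629% in kidney (0.445% to 0.864%), 0.476% in spleen (0.340% to 0.649%) and 0.442% in lung (0.320% to 0.596%). With upper quartile scaling UNC80 was higher in heart (0.091 RPKM) than in kidney (0.049), lung (0.031) and spleen (0.030). In kidney, lung and spleen ZIC1 and GABRA6 were at 0 reads, whereas CBLN3 had 30 reads in kidney, 80 in lung and 159 in spleen, and ZIC2 had 2, 2 and 6. Whether RNA or reads from cerebellum entered the heart library, and with them the 8 reads of GABRA3 and the 2 of KCNA1, was not tested. Without heart, the GABRA3 fold over the highest other tissue was at least 202 instead of 99.5.

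**Figure D4:**
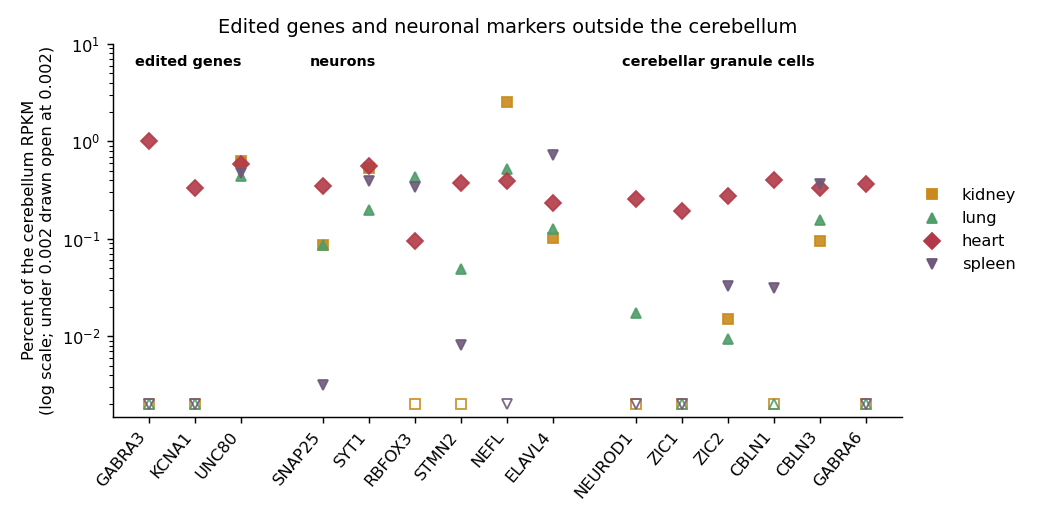
RPKM in kidney, lung, heart and spleen as a percentage of the RPKM in cerebellum (log axis) for the 3 edited genes, 6 neuronal genes and 6 granule cell genes; open symbols stand for values under 0.002%, 0 included. In heart every granule cell gene lies between 0.195% and 0.397%, and on the deposited scale UNC80 is at a like percentage in all 4 tissues.

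The labelled tissues carried their own markers. Summed over the matched genes, kidney markers had 1415 RPKM in kidney and at most 2.39 elsewhere, lung markers 7952 in lung and at most 3.97 elsewhere, and heart markers 12648 in heart and at most 3.44 elsewhere. Spleen markers, which mark lymphocytes and other leukocytes, had 654 RPKM in spleen and 48.7 in lung. Oligodendrocyte genes such as MBP and MOG had 1566 RPKM in cerebellum and at most 10.3 elsewhere. Astrocyte genes (252 RPKM in cerebellum) and Purkinje cell genes (276) included members with a high level elsewhere, such as ALDH1L1 at 118 RPKM and CALB1 at 488 RPKM in kidney. Among the peripheral nerve genes, PRPH had 0 reads in every tissue, and TH was at most 0.258 RPKM and CHRNA3 at most 0.924 RPKM outside the cerebellum. Of the 4 matched genes of this list, 3 had at least 10 reads in a tissue, and none met the call of cerebellum enrichment, against 5.52% of all genes. Properly mapped reads ranged from 48306898 in kidney to 81517974 in cerebellum.

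Among the GABA-A receptor subunits, 16 of 19 genes were matched in the files, 13 had at least 10 reads in a tissue, and 7 of these were cerebellum-enriched (background 5.52%). The called genes included GABRA3, GABRA6, GABRB2, GABRG1 and GABRD. The median log2 fold over the highest other tissue was 5.36 over the 12 tested subunits with reads in cerebellum, against -1.14 over the 16549 such genes of the files. GABRD, the delta subunit of receptors outside the synapse, had the highest level, 87.0 RPKM. GABRA6, the alpha subunit of granule cells, had 47.3 RPKM. GABRA3 came well below it at 3.08, above GABRA2 at 0.770 and GABRA4 at 0.382 RPKM.

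GABRA5 did not share this pattern. It stood at 3.64 RPKM in cerebellum, near kidney (3.63) and lung (3.43), with spleen at 2.86 and heart at 0.914. Its model is overlapped by 1 other gene model, named GABRB1 in the name table but lying on chromosome 7, where RefSeq has GABRB1 on chromosome 5. The reads of GABRA5 are therefore uncertain, and the overlapping gene was left out. GABRE, the epsilon subunit, was highest in kidney (17.7 RPKM), followed by lung (14.1), spleen (7.17), cerebellum (2.17) and heart (0.646). GABRP, the pi subunit known from epithelia, had 0.738 RPKM in kidney and 0.533 in lung and no reads in cerebellum. GABRA3 and GABRA6 had 0 reads in kidney, lung and spleen alike.

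Of the genes of GABA synthesis, transport and anchoring, 8 of the 10 matched and tested were called, against 5.52% of all genes (median log2 fold 5.09, against -1.14). GAD1, which makes GABA from glutamate, had 33.6 RPKM in cerebellum and at most 0.079 elsewhere. SLC32A1, the vesicular GABA transporter, had 10.8 and at most 0.050. GABBR1, a subunit of the metabotropic GABA-B receptor, had the highest level of the list, 165 RPKM in cerebellum against 3.67 to 9.72 elsewhere. The remaining genes were GPHN and GABARAP. GPHN, which encodes the scaffold gephyrin, had 17.8 RPKM in cerebellum and 14.2 in kidney, and GABARAP, which also acts in autophagy, had 48.2 to 95.4 RPKM in the 5 tissues.

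**Figure D5:**
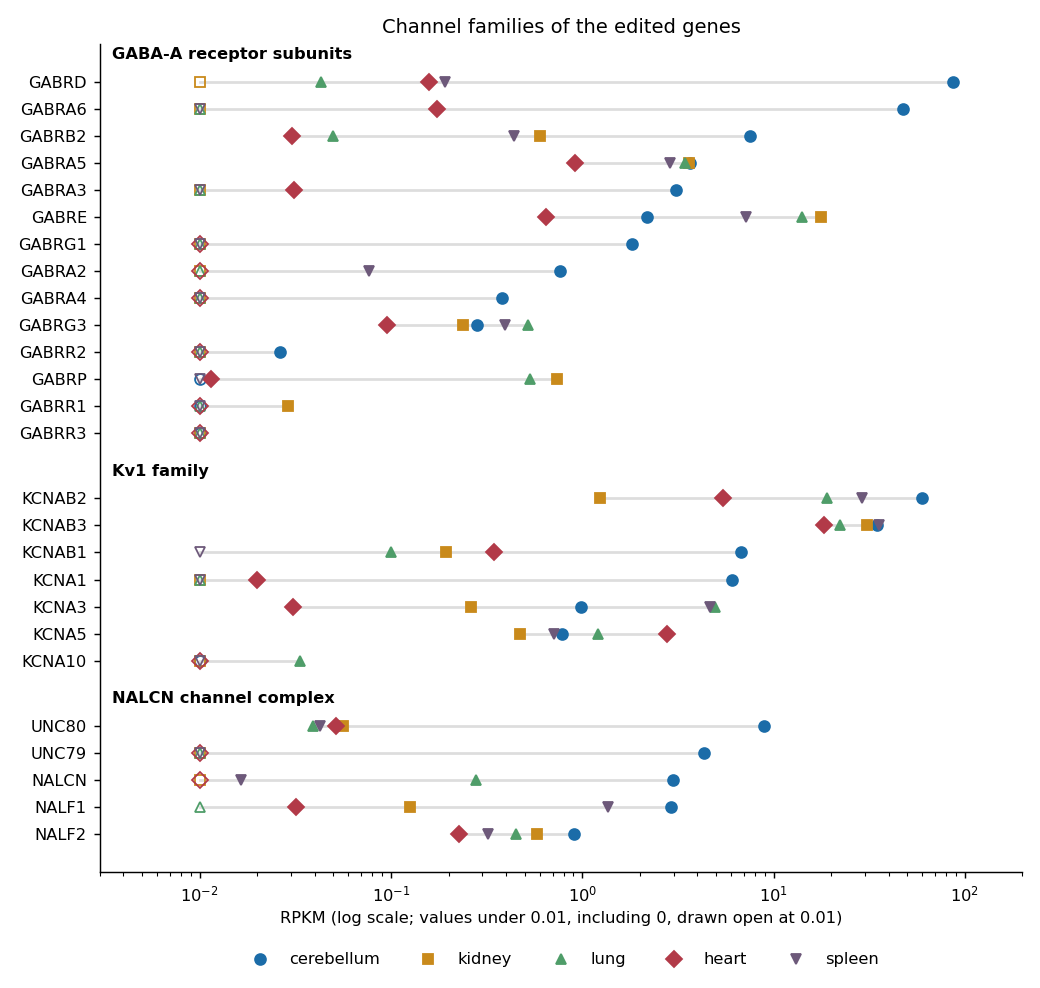
RPKM (log axis) in the 5 tissues for matched genes of the GABA-A receptor subunits, Kv1 family and NALCN channel complex, 1 library per tissue, with values under 0.01 drawn open at 0.01. GABRA3, KCNA1 and UNC80 show cerebellum apart from all other tissues, whereas GABRE, KCNA3 and KCNA5 are highest outside the cerebellum.

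Of the 11 Kv1 family genes 7 were matched and 6 were tested, of which KCNA1 and the beta subunit gene KCNAB1 were cerebellum-enriched, against 5.52% of all genes (median log2 fold 0.50, against -1.14). KCNA2, KCNA4, KCNA6 and KCNA7 were not matched and were not analysed here. The other matched alpha subunit genes, KCNA3, KCNA5 and KCNA10, had their highest level elsewhere. KCNA3, the Kv1.3 channel of lymphocytes, had 4.95 RPKM in lung and 4.63 in spleen, against 0.985 in cerebellum, 0.264 in kidney and 0.031 in heart. KCNA5, the Kv1.5 channel of atrial muscle, had 2.79 RPKM in heart, 1.21 in lung and 0.788 in cerebellum. KCNA10 had 0.033 RPKM in lung and 0 reads in the other tissues.

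The Kv1 beta subunits differed from each other. KCNAB1 had 6.73 RPKM in cerebellum, close to the 6.05 of KCNA1, and at most 0.345 elsewhere. KCNAB2 was the most abundant with 59.9 RPKM in cerebellum, but had 29.1 in spleen and 19.1 in lung. KCNAB3 was at 18.4 to 35.4 RPKM in all 5 tissues, on a model of only 824 bp of exon. Among the partners that hold Kv1 channels at axons and synapses, 5 of 7 genes were called, with the same background of 5.52% (median log2 fold 3.53). CNTN2, an adhesion molecule beside the node of Ranvier, had 19.1 RPKM in cerebellum and at most 0.124 elsewhere. LGI1, a secreted partner of ADAM22, had 16.03 and at most 0.134, and DLG4, the scaffold PSD-95, had 82.6 and at most 4.71. ADAM22 and ADAM23 did not reach 4-fold, with 2.58 and 3.88 RPKM in cerebellum and 0.769 and 1.73 in spleen.

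All 5 genes of the NALCN complex were matched and tested, and 3 were called, namely NALCN, UNC79 and UNC80, against 5.52% of all genes (median log2 fold 3.42, against -1.14). At a cerebellum level of 5 RPKM, UNC80 was the 1 gene still called. UNC80 had the highest level of the complex in cerebellum. UNC79 had 4.31 RPKM there and at most 0.0049 elsewhere, and was at least 584-fold higher than in kidney, where 3 reads set the floor. The pore subunit NALCN had 2.97 RPKM in cerebellum, 0.278 in lung, 0.017 in spleen and 0 reads in kidney and heart. UNC80 thus had reads in kidney and heart where NALCN had none and UNC79 was under 3 reads. Cerebellum read numbers were 10198 for UNC80, 2959 for UNC79 and 1308 for NALCN, so a like percentage would give UNC79 and NALCN fewer reads. NALF1, an auxiliary subunit, had 2.90 RPKM in cerebellum and 1.36 in spleen. NALF2 was at 0.905 RPKM in cerebellum and 0.227 to 0.578 elsewhere.

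The ADAR genes did not meet the call of cerebellum enrichment (0 of 3, against 5.52% of all genes), with a median log2 fold of 0.70, against -1.14. With 3 genes this count is near the share of all genes. ADAR had 43.9 RPKM in spleen, the highest of the 5 tissues, and 16.9 in cerebellum. ADARB1, which encodes ADAR2, had 21.4 RPKM in cerebellum, 13.2 in lung, 2.66 in spleen, 1.71 in kidney and 0.608 in heart, so that cerebellum was 1.62 times lung. ADARB2, an ADAR relative not known to edit, had 0.748 in cerebellum and no reads in spleen. Its cerebellum level was 10.9 times that of lung, its highest other tissue, and it missed the call by standing under 1 RPKM. On the deposited scale ADAR was higher in kidney (19.8 RPKM), lung (31.8) and spleen than in cerebellum, and lower in heart (5.69). Upper quartile and median-of-ratios scaling divide kidney values by 1.148 and 1.165, which brings ADAR in kidney close to cerebellum.

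The genes with the most similar tissue pattern were found by the Euclidean distance of log2(RPKM + 0.1) over the 5 libraries, among genes with a checked name. For GABRA3 they were SLC8A3, a sodium-calcium exchanger, CACNG3, an auxiliary subunit of AMPA receptors, GPR142, CELSR3 and ACP7, at distances of 0.22 to 0.40. For KCNA1 they were GLRA2, a glycine receptor subunit, CLVS1, ST18, STXBP5L and CELF5, at 0.082 to 0.33. GLRA2 had 5.71 RPKM in cerebellum, 0.020 in heart and 0 reads in kidney, lung and spleen. For UNC80 they were TNR, DLGAP3, NDP, SLC35F3 and CADM2, at 0.58 to 0.72. TNR, an extracellular matrix glycoprotein of the nervous system, stood at 8.71 RPKM in cerebellum, with kidney at 0.054, lung at 0.033, heart at 0.027 and spleen at 0 reads. Of the 15 genes, 11 were again among the nearest under upper quartile scaling and 6 with a pseudocount of 1 RPKM. The measure mostly compares the level in cerebellum, since genes near 0 elsewhere differ little on this scale.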

How the data were processed

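For each tissue, the authors deposited raw read counts and RPKM per transcript in 1 file. Reads were aligned by the authors with BWA to rheMac2 and to annotated transcripts, and the submitters' processing notes name TopHat 1.2.0. The counting tool is not given in the sources used here. RPKM recomputed from read number, exon length and properly mapped reads matched in every row. Start positions were written 1-based. The row of a gene was the transcript with the highest RPKM summed over the 5 tissues. Intervals were 95% Wilson intervals of a read number, or exact (Clopper-Pearson) intervals of a share or of the ratio of 2 read numbers, and the floor was 3 reads. No test between tissues was possible with 1 library each.

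Symbols came from a name table for 15557 of 28633 identifiers. Of the 13308 found in RefSeq (T2T-MMU8v2.0), 147 lay on another chromosome and were not used, a rule added after the data were seen. Of 113 list symbols, 94 were matched. The members and lists were chosen with earlier results of these data known. The rule for named genes took the 3 members, the GABRA, KCNA and NALCN complex genes, the highest gene of each list in cerebellum and elsewhere, and the 5 nearest patterns; other list genes were named after their values were seen, and some list genes enter the counts and sums but are not reported here by name. The call and the ratio intervals were tried on simulated reads, drawn independently and with a fold far below those of the members. That trial had no read pairs, so it cannot show how well the intervals hold for paired or very few reads. Alternatives covered the gene row, scaling, floor, thresholds, pseudocount and tissues left out. Computation used pandas 2.3.3, scipy 1.17.1 and numpy 2.4.6 under Python 3.11.15, and plots used matplotlib 3.10.9.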

Additional observations from a re-analysis of the deposited data

How the results depend on the processing

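The 3 genes were called cerebellum-enriched under every alternative tried except a cerebellum level of 5 RPKM, which left 2, without GABRA3. The counts for the GABA-A subunits (5 to 8) and the Kv1 family (2 to 3) stayed within 1.5 times. The NALCN complex had 3 to 4 calls, but 1 at a cerebellum level of 5 RPKM. Scaling by the upper quartile gave a fold over the highest other tissue of 56.5 for GABRA3, 115 for KCNA1 and 97.7 for UNC80, and median-of-ratios scaling gave 52.1, 106 and 90.2. Both KCNA1 values are set by the floor of 3 reads, since KCNA1 had 2 reads or fewer in each other tissue. These scalings shifted the heart values by 0.82 and 0.93 on the log2 scale, by construction. Summing the UNC80 transcripts gave 103. For KCNA1, the fold was at least 46.3 with a floor of 10 reads and at least 77.2 with a floor of 6 reads, which stands for 3 read pairs and was chosen after seeing the data, since the floor sets the bound. The share of all genes called was 8.72% at a fold of 2, 3.53% at a fold of 10 and 3.46% without the read filter. With a pseudocount of 1 RPKM, 6 of the 15 nearest genes were the same. No paired analysis was possible because each tissue had 1 library. The depth limits every statement on the 3 genes outside the cerebellum, which rests on 46 reads or fewer.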
